A study of Mus musculus with 9 samples.

Results

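The 7 genes described here encode or control the MHC class II antigen-presentation machinery of the mouse. They were taken by gene symbol (Cd74, H2-Aa, H2-Ab1, H2-Eb1, H2-DMa, H2-DMb1 and Ciita), and each matched 1 of the 55385 Ensembl gene IDs in the data. The study measured whole kidney of C57BL/6 mice by bulk RNA sequencing. Kidneys were taken at day 3 or at day 7 after cisplatin, a platinum drug that injures the kidney tubule, given intraperitoneally at 20 mg/kg, and 3 libraries were made for each time. The 3 sham libraries came from mice that received saline in the same volume by the same route. The sources used here give neither the day on which sham kidneys were taken nor the age and sex of the mice. The design text calls the 3 libraries of a group biological repeats and does not say whether each came from 1 mouse.

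MHC class II molecules carry peptides from endocytosed proteins to the surface of antigen-presenting cells, where CD4+ T cells read them. The alpha and beta chains assemble in the endoplasmic reticulum with the invariant chain Cd74, which is cut away in endosomes, and the H2-DM heterodimer then exchanges its remnant for other peptides. Transcription requires a complex of RFX, NF-Y and CREB proteins on a shared promoter element and the transactivator Ciita. In the kidney, resident dendritic cells and macrophages are the main cells known to express these genes, and interferon gamma can induce them in tubule and endothelial cells.

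Levels are the FPKM that the authors deposited, that is, fragment numbers corrected for transcript length and for library size, and the read depth behind them is unknown. FPKM summed to between 421810 and 509537 per library, with 11647 to 13183 genes at 1 FPKM or more. The kidney label was matched by proximal tubule genes such as Kap, listed at 2396 to 35637 FPKM over the 9 libraries. Replicate 2 of day 7 had more signal from immune cells than the other day 7 libraries, with 34.1 FPKM summed over 6 pan-leukocyte markers against 12.6 in replicate 1 and 9.91 in replicate 3. Replicate 1 of day 3 had the lowest summed proximal tubule level of all libraries, 2841 FPKM, and the highest summed interferon gamma axis, 349 FPKM.

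At day 3 after cisplatin the classical class II chains, the invariant chain and the H2-DM beta chain all fell, while the H2-DM alpha chain did not pass the test. Of the 6 members that passed the filter on low values (3 of the 9 libraries had to reach 1 FPKM), 5 were called lower and none higher. Over all 13718 genes tested, 59.9% were called between day 3 and sham, 20.6% as lower and 39.3% as higher. With median-of-ratios scaling, which moved the median log2 fold change of all genes to 0.03 from 0.25, these shares were 28.8% lower and 29.8% higher, and the same 5 members were called lower. The test was limma, a linear model fitted to log2(FPKM + 1) of all genes, with Benjamini-Hochberg adjustment over all genes tested and a threshold of 0.05, and every log2 fold change below is on that scale. The median log2 fold change of the 6 tested members was -2.15.

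Cd74, the invariant chain, was the most abundant member in all 9 libraries. It lies on the plus strand of chromosome 18 (GRCm38, 60803848 to 60812652) and overlaps the microRNA gene Mir5107 on the same strand. The other members lie on chromosome 17, within the major histocompatibility complex, except Ciita, which lies on chromosome 16 (10480059 to 10528418, plus strand). Cd74 had 11.2, 20.4 and 29.7 FPKM in the day 3 libraries, against 105.7, 112.5 and 275.2 FPKM in the sham libraries. All day 3 libraries lay below all sham libraries, and replicate 3 stood well above the other sham libraries. The log2 fold change was -2.90 ± 0.55 (SE, n = 3 each; adjusted p = 0.00183), a 7.48-fold lower level on the tested scale.

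**Figure D1:**
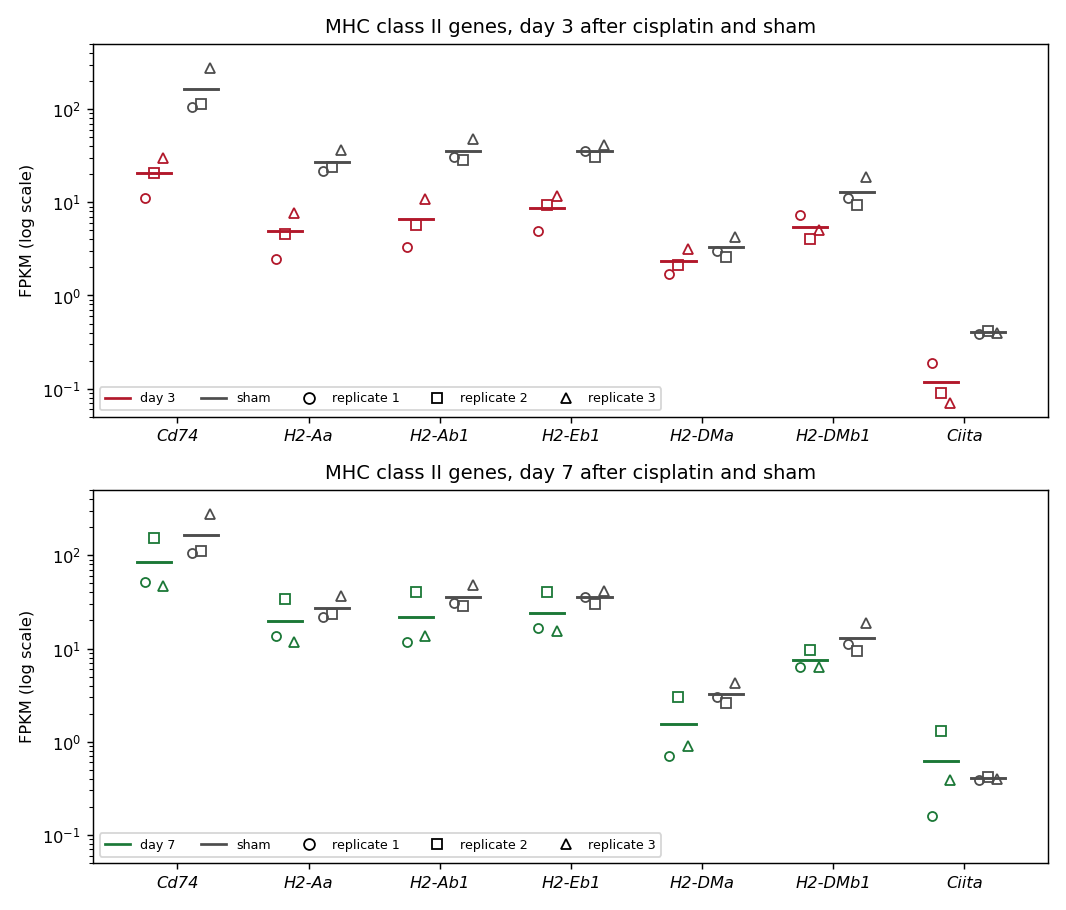
FPKM of the 7 class II genes in each library, with day 3 and sham in the upper panel, day 7 and sham in the lower panel and a log y axis; points are libraries shaped by replicate and lines are group means. The day 3 points of Cd74, H2-Aa, H2-Ab1, H2-Eb1, H2-DMb1 and Ciita lie below every sham point, while those of H2-DMa overlap with sham.

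H2-Aa and H2-Ab1 encode the alpha and beta chains of I-A, the class II molecule that C57BL/6 mice display. H2-Aa (34282744 to 34287823, minus strand) and H2-Ab1 (34257689 to 34269419, plus strand) are neighbours on chromosome 17. H2-Aa had 2.49, 4.6 and 7.68 FPKM in the day 3 libraries, against 21.6, 23.7 and 36.5 FPKM in the sham libraries. H2-Ab1 had 3.31, 5.67 and 10.9 FPKM at day 3, against 30.5, 28.5 and 48.3 FPKM in sham. For both chains every day 3 library was below every sham library, and replicate 1 was the lowest of the day 3 libraries. H2-Aa fell by 2.32 ± 0.44 on the log2 scale (SE; adjusted p = 0.00185) and H2-Ab1 fell by 2.36 ± 0.50 (adjusted p = 0.00321). Mean levels of H2-Aa were 4.92 ± 2.61 FPKM at day 3 and 27.3 ± 8.09 FPKM in sham (SD, n = 3 each).

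H2-Eb1 encodes the beta chain of I-E. C57BL/6 mice carry a haplotype that does not express the I-E alpha chain, and H2-Ea-ps was listed at 0 in all 9 libraries. H2-Eb1 had 4.92, 9.40 and 11.8 FPKM at day 3, against 35.6, 30.4 and 41.5 FPKM in sham. Its groups did not overlap, and it fell by 1.99 ± 0.39 on the log2 scale (SE; adjusted p = 0.00211).

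Of the peptide editor H2-DM, the beta chain was called and the alpha chain was not. H2-DMb1, its beta chain, had 7.24, 4.0 and 5.0 FPKM at day 3, against 11.1, 9.37 and 18.7 FPKM in sham, and its groups did not overlap. It fell by 1.11 ± 0.28 on the log2 scale (SE; adjusted p = 0.00824). H2-DMa, its alpha chain, had 1.71, 2.13 and 3.15 FPKM at day 3, against 2.99, 2.57 and 4.28 FPKM in sham, and its groups overlapped (log2 fold change -0.37 ± 0.32, adjusted p = 0.352). Both values carry limits of counting. H2-DMa overlaps Brd2 on the opposite strand, and Brd2 had 24.5, 33.6 and 37.5 FPKM at day 3, against 12.9, 13.4 and 12.9 FPKM in sham. The library kit keeps strand, but whether the counting used strand is not given in the sources used here, and the part of Brd2 reads in the H2-DMa value was not tested. H2-DMb1 shares 96.0% of 1045 aligned transcript bases with H2-DMb2, so reads could be split between them.

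Ciita, the transactivator, was low everywhere and passed 1 FPKM in a single library. It had 0.19, 0.09 and 0.07 FPKM at day 3, against 0.39, 0.42 and 0.40 FPKM in sham. Every day 3 library was below every sham library, with means of 0.117 ± 0.064 FPKM at day 3 and 0.403 ± 0.015 FPKM in sham (SD, n = 3 each). In a fit with no filter its log2 fold change was -0.33 (adjusted p = 0.308), on a scale where the added 1 FPKM outweighs its level. Counting Ciita, 6 of the 7 members had day 3 libraries all below the sham libraries, against 21.8% of tested genes. Ciita overlaps Dexi on the opposite strand, and Dexi had 2.52 to 2.56 FPKM at day 3 and 2.68 to 3.41 FPKM in sham.

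In bulk kidney, fewer class II-positive cells and less class II RNA per cell cannot be told apart. Leaving out any 1 of the 9 libraries kept the direction and the call of all 6 tested members between day 3 and sham.

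**Figure D2:**
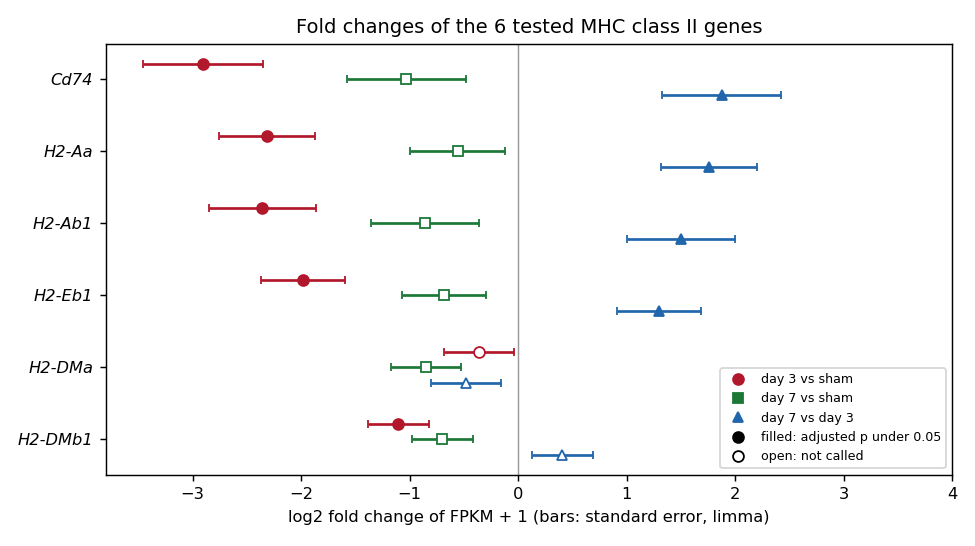
Log2 fold changes of the 6 tested members with their standard errors from limma on log2(FPKM + 1), for day 3 over sham, day 7 over sham and day 7 over day 3; filled symbols passed the adjusted threshold of 0.05. Cd74, H2-Aa, H2-Ab1 and H2-Eb1 lie between -2.90 and -1.99 for day 3 over sham and between 1.30 and 1.87 for day 7 over day 3.

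Promoters are shown for 3 members that fell at day 3 and in which both cores of the class II promoter element were found. RefSeq's table of promoters on GRCm38.p6, each running from 250 bases before to 50 bases after a gene's start, held 4 of the 7 members. Capitals mark CNNNNAAC, the core of the X1 box that RFX binds, and then ATTGG, the reverse complement of the CCAAT core of the Y box that NF-Y binds.
H2-Aa, chr17:34287774-34288073, minus strand: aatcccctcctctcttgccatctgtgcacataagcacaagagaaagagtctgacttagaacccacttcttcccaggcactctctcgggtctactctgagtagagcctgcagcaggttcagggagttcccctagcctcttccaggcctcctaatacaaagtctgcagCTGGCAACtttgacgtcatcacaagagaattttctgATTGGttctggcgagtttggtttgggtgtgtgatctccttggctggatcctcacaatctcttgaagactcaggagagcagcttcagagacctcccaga
H2-Eb1, chr17:34305617-34305916, plus strand: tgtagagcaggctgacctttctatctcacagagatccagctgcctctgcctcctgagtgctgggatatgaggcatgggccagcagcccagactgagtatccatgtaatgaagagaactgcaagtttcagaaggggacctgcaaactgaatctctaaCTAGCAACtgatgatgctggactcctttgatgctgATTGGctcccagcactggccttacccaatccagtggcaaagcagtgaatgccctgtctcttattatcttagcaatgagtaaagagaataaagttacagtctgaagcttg
H2-DMb1, chr17:34152941-34153240, plus strand: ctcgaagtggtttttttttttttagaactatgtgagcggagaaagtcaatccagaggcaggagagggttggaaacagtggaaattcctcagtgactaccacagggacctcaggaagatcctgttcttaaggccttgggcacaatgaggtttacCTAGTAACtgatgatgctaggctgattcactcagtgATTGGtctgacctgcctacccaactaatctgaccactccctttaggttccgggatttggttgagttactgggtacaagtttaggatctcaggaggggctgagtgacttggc
The 2 cores stood 28 bases apart in H2-Aa, 27 in H2-Eb1 and 28 in H2-DMb1, and the X1 core began 84, 94 and 97 bases before the start in the same order. This ordered pair, with 10 to 30 bases between, was in 2.85% of 32851 promoters searched on both strands, and it was chosen after the class II promoters had been read. It was also in the promoters of H2-Oa, H2-Ob, H2-DMb2 and H2-Eb2. A longer and stricter X1 core followed by ATTGG was in 0.374% of promoters and among the members in H2-DMb1 alone. CCAAT by itself was in 37.4% of promoters. The 2 listed starts of H2-DMa held neither pair in these windows, and which start is used in these kidneys is not known. A link between the pair and the calls was not tested.

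Genes for the proteins that bind this element were called in both directions at day 3. Of 7 such genes, all tested, 4 were called higher and 1 lower. Over all tested genes 39.3% were called higher and 20.6% lower, or 29.8% and 28.8% with median-of-ratios scaling. Rfx5, an RFX subunit, had 6.56, 5.57 and 4.18 FPKM at day 3, against 2.35, 1.42 and 1.12 FPKM in sham (log2 fold change 1.30 ± 0.21, adjusted p = 0.00082). Nfyb, an NF-Y subunit, rose by 1.58 ± 0.18 (adjusted p = 0.000104) and Nfya by 0.75 ± 0.14 (adjusted p = 0.00156). Rfxap rose by 0.49 ± 0.13 (adjusted p = 0.0120), a call lost with median-of-ratios scaling and with quantile normalization. Nfyc, the remaining NF-Y subunit, had 10.2, 7.31 and 6.67 FPKM at day 3, against 24.7, 26.4 and 18.7 FPKM in sham, and fell by 1.42 ± 0.17 (adjusted p = 0.000174). Rfxank (-0.05, adjusted p = 0.799) and Creb1 (-0.21, adjusted p = 0.717) were not called.

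Ratios to H2-Aa were taken within each library. The ratio of H2-Ab1 to H2-Aa was 1.33, 1.23 and 1.42 in the day 3 libraries and 1.41, 1.2 and 1.32 in the sham libraries. The ratio of Cd74 to H2-Aa was 4.50, 4.43 and 3.87 at day 3 and 4.90, 4.74 and 7.53 in sham, a log2 difference of -0.39 with no overlap. For H2-DMa the ratio was 0.687, 0.463 and 0.410 at day 3, against 0.139, 0.108 and 0.117 in sham, a log2 difference of 2.07 with no overlap. For H2-DMb1 it was 2.91, 0.870 and 0.651 at day 3, against 0.513, 0.395 and 0.512 in sham, a log2 difference of 1.33 with no overlap, or 0.68 without replicate 1 of day 3. The two-sided exact permutation test of 3 libraries against 3 cannot go below p = 0.1. The ratios of Cd74, H2-DMa and H2-DMb1 reached it (0.18 after adjustment over 18 ratios), so none of these differences could pass the threshold.

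Other genes of the pathway were called in both directions at day 3. Of the 11 tested genes of class II peptide processing and turnover, 5 were called higher and 2 lower. This was near the shares over all tested genes, 39.3% higher and 20.6% lower. Their median log2 fold change was 0.38, against 0.25 over all genes. Ctsd, an endosomal protease, had 759.0, 773.5 and 637.4 FPKM at day 3, against 234.1, 282.4 and 259.0 FPKM in sham (1.48 ± 0.13, adjusted p = 2.97e-05). Ifi30, the lysosomal thiol reductase GILT, rose by 1.02 ± 0.13 (adjusted p = 0.000242), and Cd44, a partner of Cd74 in signalling, rose by 1.70 ± 0.31 (adjusted p = 0.00139). Lgmn, an asparaginyl endopeptidase, fell by 1.23 ± 0.18 (adjusted p = 0.000383), and the Cd74 ligand Mif fell by 0.63 ± 0.13 (adjusted p = 0.00267). Ctss, the protease that trims the invariant chain in antigen-presenting cells, had 12.7, 30.2 and 34.9 FPKM at day 3, against 11.3, 8.82 and 14.1 FPKM in sham, and was not called (adjusted p = 0.128). Of the other class II chains and editors, H2-DMb2 alone was tested, and it was not called (-0.56, adjusted p = 0.227). H2-Oa had 0.13 to 0.34 FPKM at day 3 and 0.41 to 0.49 FPKM in sham, and H2-Ob had 0.08 to 0.11 FPKM at day 3 and 0.11 to 0.31 FPKM in sham. H2-Eb2 stayed at or below 0.06 FPKM in every library.

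Genes of the interferon gamma axis, which includes known inducers of Ciita, were higher at day 3 where they were called. Of 13 tested, 7 were called higher and none lower, with a median log2 fold change of 1.29, against 39.3% of all genes called higher. Cxcl9, an interferon gamma target below the filter, had 0.05, 0.03 and 0.05 FPKM at day 3, against 0.11, 0.69 and 2.16 FPKM in sham, so its day 3 libraries all lay below sham. The receptor chain Ifngr2 had 19.5, 18.9 and 21.5 FPKM at day 3, against 4.76, 3.08 and 3.68 FPKM in sham (2.13 ± 0.18, adjusted p = 2.90e-05). The interferon-induced genes Cxcl10 (2.66 ± 0.49, adjusted p = 0.00153), Gbp3 (2.29 ± 0.31, adjusted p = 0.000316) and Gbp2 (1.94 ± 0.48, adjusted p = 0.00722) rose. Ifng itself was listed between 0 and 0.11 FPKM in all libraries. Irf1, a transcription factor that acts on a Ciita promoter, was not called (1.16, adjusted p = 0.205). Irf1 had 48.3, 3.49 and 9.25 FPKM at day 3, against 4.43, 3.96 and 6.53 FPKM in sham, so that replicate 1 of day 3 stood apart. That library had the highest interferon gamma axis sum and the lowest level of H2-Aa, H2-Ab1, H2-Eb1 and Cd74 of all 9 libraries. It also had the lowest pan-leukocyte sum of the day 3 libraries, 10.4 FPKM against 30.2 and 26.1 FPKM. Its Csf1r level was lowest as well, at 1.69 FPKM against 4.85 and 4.05 FPKM. A link between the interferon genes and the class II levels was not tested.

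**Figure D3:**
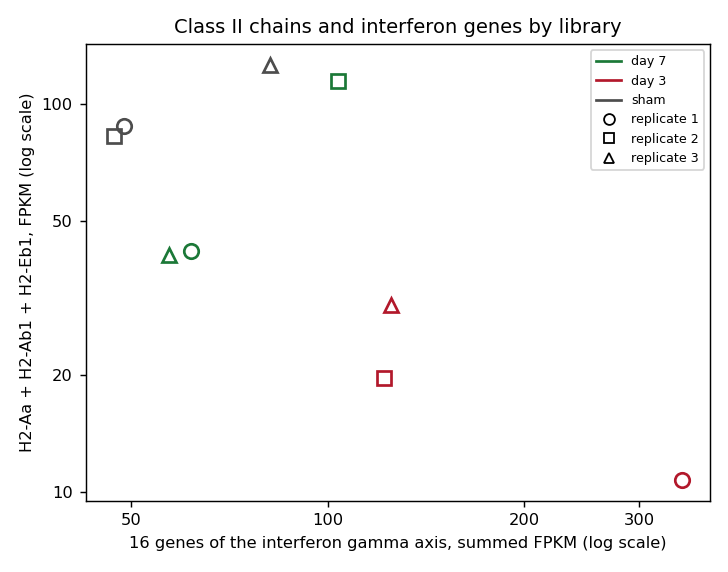
Summed FPKM of H2-Aa, H2-Ab1 and H2-Eb1 (y, log axis) against summed FPKM of the 16 genes of the interferon gamma axis (x, log axis), 1 point per library, coloured by group and shaped by replicate. Day 3 replicate 1 lies at 349 FPKM of interferon genes and 10.7 FPKM of class II chains, at the lower right.

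The listed class I presentation genes were higher at day 3 where they were called, at a rate near that of all genes. Of 11 tested class I genes, 5 were called higher and none lower, against 39.3% of all genes called higher. With median-of-ratios scaling 29.8% of all genes were called higher. The class I genes H2-Q6 and H2-Q7, which are not on this list, were lower in every day 3 library than in every sham library. The peptide transporter gene Tap1 rose by 1.63 ± 0.34 (adjusted p = 0.00311). The calls of Tap2 (adjusted p = 0.0727) and Psmb8 (adjusted p = 0.112) were lost with median-of-ratios scaling, and that of Erap1 with quantile normalization (adjusted p = 0.0574) and with a GC and length trend removed (adjusted p = 0.2). H2-K1, a classical class I heavy chain, had 56.3, 73.2 and 94.1 FPKM at day 3, against 47.4, 52.0 and 67.2 FPKM in sham, and was not called (0.40, adjusted p = 0.251). B2m, the class I light chain, was not called (0.18, adjusted p = 0.639). Among costimulatory genes 1 of 2 tested was called, Cd274, the ligand PD-L1, with 11.6, 9.92 and 8.03 FPKM at day 3, against 1.12, 1.01 and 1.36 FPKM in sham (2.32 ± 0.17, adjusted p = 1.64e-05). The difference between the courses of class I and class II was not tested.

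Markers of the cells that carry class II were mixed at day 3, when 39.3% of all tested genes were called higher and 20.6% lower. None of 5 tested pan-leukocyte markers was called by limma (1 at an unadjusted p under 0.05), and their sum over 6 genes ran from 10.4 to 30.2 FPKM at day 3 and from 19.6 to 23.1 FPKM in sham. Among dendritic cell markers 1 of 2 tested was called, the lectin Cd209a, with 0, 0.09 and 0.21 FPKM at day 3, against 0.91, 1.42 and 1.53 FPKM in sham (-1.05 ± 0.16, adjusted p = 0.000557). The other, the transcription factor gene Zbtb46, had 1.22, 1.24 and 1.4 FPKM at day 3, against 0.98, 0.73 and 0.71 FPKM in sham, and was not called (0.34 ± 0.14, adjusted p = 0.0649), though its groups did not overlap. Cd209a passed the filter only through sham and day 7 libraries. Flt3 (0.01 to 0.04 FPKM at day 3, 0.07 to 0.23 FPKM in sham) and Itgax (0.38 to 1.03 FPKM at day 3, 0.77 to 0.84 FPKM in sham) were below the filter. The 12 dendritic cell markers summed to 2.89 to 4.45 FPKM at day 3 and 5.15 to 6.56 FPKM in sham.

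Of 13 tested macrophage and monocyte markers, 4 were called higher and 5 lower at day 3, beside 39.3% and 20.6% of all tested genes. The 17 listed genes summed to 196.3 to 356.3 FPKM at day 3 and 97.9 to 106.4 FPKM in sham. Called higher were Cd68, Chil3, Cd14 and Itgam, and those called lower included Csf1r, C1qa and C1qb. Without Cd68, Chil3 and Cd14, left out after their values were seen, the other 14 genes summed to 43.28, 101.93 and 110.44 FPKM at day 3, against 90.07, 89.37 and 100.85 FPKM in sham. The complement gene C1qa, high in resident macrophages, had 4.87, 8.66 and 13.02 FPKM at day 3, against 19.7, 23.5 and 23.9 FPKM in sham (-1.33 ± 0.44, adjusted p = 0.0266). All 3 tested neutrophil markers were called higher, and the 8 listed summed to 29.2 to 104.5 FPKM at day 3 and 2.74 to 14.5 FPKM in sham. Both tested T and NK cell markers, Trac and Trbc2, were called lower. They passed the filter only through sham and day 7 libraries, which favoured a lower level at day 3 in advance. The 11 listed summed to 1.02 to 1.2 FPKM at day 3 and 6.17 to 7.21 FPKM in sham. Without overlap, 9 of these 11 were lower at day 3 and 1 higher. The share of 21.8% lower among tested genes is not a like measure, since only 2 of the 11 passed the filter. No B cell marker passed the filter: Ms4a1 was at or below 0.04 FPKM in every library. The 11 listed summed to 1.49 to 2.24 FPKM at day 3 and 1.25 to 2.40 FPKM in sham. This sum joins opposite moves, with 4 genes lower and 2 higher without overlap. Cd79a, 1 of those higher, had 0.68, 1.3 and 1.55 FPKM at day 3, against 0.13, 0.39 and 0.19 FPKM in sham. Of 10 endothelial markers 1 was called higher and 4 lower, with sums of 67.9 to 170.1 FPKM at day 3 and 134.2 to 177.6 FPKM in sham. All 10 proximal tubule markers were called lower, with sums of 2841 to 17051 FPKM at day 3 and 30943 to 41031 FPKM in sham. The part of these cell types in the class II levels was not tested.

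Set against the level of a marker within the same library, the class II chains gave different answers for different markers. H2-Aa, H2-Ab1 and H2-Eb1 summed to 10.7, 19.7 and 30.3 FPKM at day 3, against 87.7, 82.6 and 126.3 FPKM in sham. Per FPKM of Ptprc, the pan-leukocyte CD45, the sum was 29.0, 26.6 and 50.6 at day 3, against 324.9, 344.2 and 350.9 in sham. Ptprc itself was low, at 0.37 to 0.74 FPKM at day 3 and 0.24 to 0.36 FPKM in sham. Per FPKM of 6 summed leukocyte markers the sum was 1.03, 0.652 and 1.16 at day 3, against 4.48, 3.58 and 6.08 in sham. Per FPKM of summed C1qa, C1qb and C1qc it was 0.871, 0.900 and 0.986 at day 3, against 1.78, 1.53 and 2.29 in sham. These 3 ratios were lower in all day 3 libraries than in all sham libraries, with log2 differences of -3.33, -2.32 and -1.0 in the same order. Csf1r, the receptor of macrophage growth factor, itself fell, with 1.69, 4.85 and 4.05 FPKM at day 3, against 11.05, 12.5 and 10.69 FPKM in sham (limma, -1.53 ± 0.26, adjusted p = 0.0011). Per FPKM of Csf1r the class II sum was 6.34, 4.06 and 7.49 at day 3, against 7.94, 6.61 and 11.8 in sham. The groups of this ratio overlapped (log2 difference -0.56, exact permutation p = 0.2). The first 3 ratios reached the smallest p the two-sided exact permutation test allows, 0.1 (0.171 after adjustment over 12 ratios). The markers were chosen after their values had been seen.

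**Figure D4:**
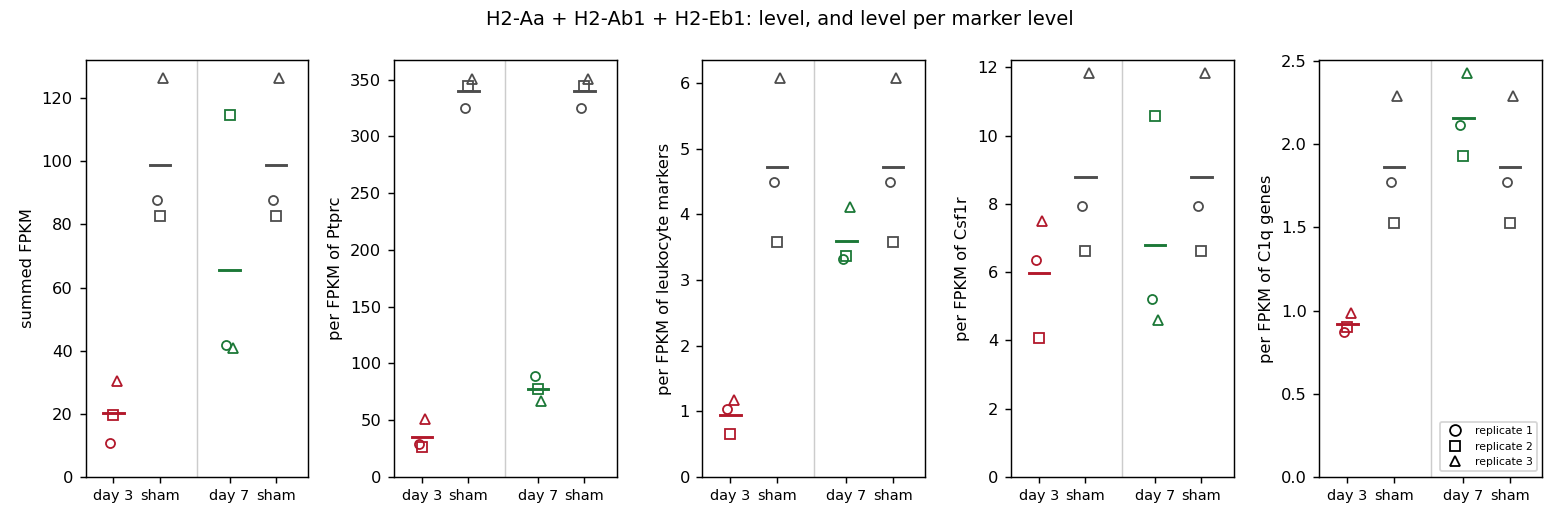
Summed FPKM of H2-Aa, H2-Ab1 and H2-Eb1 alone and divided by the level of Ptprc, Csf1r, the summed C1q genes or 6 summed leukocyte markers, drawn pair by pair on linear axes from 0; points are libraries shaped by replicate and lines are group means. Day 3 lies below sham without overlap in every panel except that of Csf1r.

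At day 7 none of the 6 tested members was called against sham by limma, and 2 had an unadjusted p under 0.05. Over all genes tested 29.7% were called, 10.4% as lower and 19.3% as higher (16.2% and 16.4% with median-of-ratios scaling). The median log2 fold change of the 6 members was -0.77, against 0.06 over all genes. Cd74 had 51.3, 154.9 and 47.3 FPKM in the day 7 libraries, against 105.7, 112.5 and 275.2 FPKM in sham (-1.03 ± 0.55, adjusted p = 0.191). Replicate 2 of day 7 lay within the sham range and the other day 7 libraries below it. H2-Aa had 13.7, 34.2 and 11.7 FPKM at day 7, against 21.6, 23.7 and 36.5 FPKM in sham (-0.56 ± 0.44, adjusted p = 0.371). H2-Ab1 had 11.7, 40.4 and 13.7 FPKM at day 7, against 30.5, 28.5 and 48.3 FPKM in sham (-0.86 ± 0.50, adjusted p = 0.225). H2-Eb1 had 16.4, 40.1 and 15.3 FPKM at day 7, against 35.6, 30.4 and 41.5 FPKM in sham (-0.69 ± 0.39, adjusted p = 0.212). For all 3 chains replicate 2 of day 7 sat among the sham libraries and replicates 1 and 3 lay below all of them.

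The H2-DM genes had the 2 smallest unadjusted p-values of the members at day 7. H2-DMa had 0.71, 2.99 and 0.89 FPKM at day 7, against 2.99, 2.57 and 4.28 FPKM in sham (-0.85 ± 0.32, unadjusted p = 0.0282, adjusted p = 0.0785). H2-DMb1 had 6.38, 9.69 and 6.30 FPKM at day 7, against 11.1, 9.37 and 18.7 FPKM in sham (-0.70 ± 0.28, unadjusted p = 0.0349, adjusted p = 0.0918). Ciita had 0.16, 1.30 and 0.39 FPKM at day 7, against 0.39, 0.42 and 0.40 FPKM in sham, with the highest Ciita level of the 9 libraries in replicate 2 of day 7. That library decides several of these results. Without it H2-DMa (-1.23, adjusted p = 0.0136) and H2-Eb1 (-1.12, adjusted p = 0.0417) were called lower, while H2-Ab1 (-1.39, adjusted p = 0.0504) and Cd74 (-1.57, adjusted p = 0.0594) were not called. Other settings moved H2-DMa in both directions: its log2 fold change was -0.95 under median-of-ratios (adjusted p = 0.0485) and -0.99 under quantile normalization (adjusted p = 0.0392), and -0.47 with a GC and length trend removed (adjusted p = 0.429). With that trend removed Cd74 was at -0.50 (adjusted p = 0.639) and H2-Ab1 at -0.28 (adjusted p = 0.792).

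Replicate 2 of day 7 was high in immune genes beyond class II. Its C1q genes summed to 59.4 FPKM, against 19.8 in replicate 1 and 16.8 in replicate 3 of day 7, and its T and NK cell markers to 7.48 FPKM, against 3.68 and 2.20. Per FPKM of the 6 leukocyte markers, its class II chains stood with its group, at 3.32, 3.36 and 4.11 in the day 7 libraries, against 4.48, 3.58 and 6.08 in sham. Per FPKM of the C1q genes the values were 2.11, 1.93 and 2.43 at day 7, against 1.78, 1.53 and 2.29 in sham. Per FPKM of Ptprc they were 89.0, 77.5 and 66.8 at day 7, against 324.9, 344.2 and 350.9 in sham, a log2 difference of -2.14 with no overlap (exact permutation p = 0.1, the smallest possible). Ptprc itself was low and was higher at day 7, with 0.47, 1.48 and 0.61 FPKM, against 0.27, 0.24 and 0.36 FPKM in sham. The undivided class II sum overlapped with sham (log2 difference -0.74, exact permutation p = 0.3), as did the ratios to the leukocyte markers and the C1q genes. Per FPKM of Csf1r the class II values were 5.20, 10.6 and 4.6 at day 7, against 7.94, 6.61 and 11.8 in sham.

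Counts of other genes of the pathway called at day 7 against sham follow, beside 29.7% of all tested genes called (10.4% lower and 19.3% higher). The counts of processing and class I genes were near that share. None of the 7 transcription genes was called by limma (1 at an unadjusted p under 0.05). Of 11 tested processing genes 1 was called higher and 2 lower. Ifi30 had 41.7, 45.6 and 35.0 FPKM at day 7, against 79.3, 71.4 and 66.0 FPKM in sham (-0.81 ± 0.13, adjusted p = 0.00353). Mif had 68.2, 57.3 and 58.2 FPKM at day 7, against 186.8, 177.2 and 151.0 FPKM in sham (-1.47 ± 0.13, adjusted p = 0.0011). Of the interferon gamma axis 2 of 13 were called, both higher, the kinases Jak1 (0.70 ± 0.12, adjusted p = 0.00374) and Jak2 (0.56 ± 0.16, adjusted p = 0.0338). Of 11 class I genes 1 was called higher and 2 lower, the heavy chains H2-D1 (-0.80 ± 0.22, adjusted p = 0.0265) and H2-T23 (-0.57 ± 0.15, adjusted p = 0.0203). The calls of Jak2, H2-D1 and H2-T23 were lost when a trend with GC content and length was removed, as were those of Ifi30 (adjusted p = 0.0987) and the class I trimming enzyme Erap1. None of the tested markers of leukocytes in general (5), dendritic cells (2), T and NK cells (2), neutrophils (3) or proximal tubule (10) was called at day 7 or had an unadjusted p under 0.05, while 1 of 13 macrophage markers was called higher and 1 lower. Of 10 endothelial markers 1 was called lower, Plvap of fenestrated endothelium (-1.09 ± 0.30, adjusted p = 0.0251), a call lost with a GC and length trend removed (adjusted p = 0.245).

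Day 7 stood above day 3 for the classical chains and the invariant chain. Of 6 tested members, 4 were called higher and none lower, against 21.7% of all tested genes called higher, 33.7% called lower and 55.4% called in either direction. With median-of-ratios scaling 27.3% of all genes were called higher and 27.3% lower. The 4 members so called were also those whose day 7 libraries all lay above the day 3 libraries, as did 25.2% of tested genes. This comparison shares its day 3 and day 7 libraries with the comparisons to sham. The median log2 fold change of the 6 members was 1.40, against -0.16 over all genes.

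Cd74 averaged 84.5 ± 61.0 FPKM at day 7 and 20.4 ± 9.24 FPKM at day 3 (SD, n = 3 each), and rose by 1.87 ± 0.55 on the log2 scale (SE; adjusted p = 0.0181). H2-Aa averaged 19.9 ± 12.45 FPKM at day 7 and 4.92 ± 2.61 FPKM at day 3, and rose by 1.76 ± 0.44 (adjusted p = 0.00859). H2-Eb1 averaged 24.0 ± 14.0 FPKM at day 7 and 8.70 ± 3.49 FPKM at day 3, and rose by 1.30 ± 0.39 (adjusted p = 0.0193). The lowest day 7 library exceeded the highest day 3 library for each of these genes. H2-Ab1 averaged 21.9 ± 16.01 FPKM at day 7 and 6.62 ± 3.87 FPKM at day 3, and rose by 1.5 ± 0.50 (adjusted p = 0.0300), with 11.7 FPKM in the lowest day 7 library and 10.9 FPKM in the highest day 3 library. H2-DMb1 (0.41 ± 0.28, adjusted p = 0.247) and H2-DMa (-0.48 ± 0.32, adjusted p = 0.233) were not called, and both had overlapping groups. Ciita had 0.16, 1.30 and 0.39 FPKM at day 7, against 0.19, 0.09 and 0.07 FPKM at day 3, also with overlap.

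Single libraries decide part of the day 7 over day 3 calls. Without replicate 2 of day 7, H2-Aa (1.30, adjusted p = 0.0217) and H2-Eb1 (0.87, adjusted p = 0.0456) were still called higher, Cd74 (1.33, adjusted p = 0.0529) and H2-Ab1 (0.97, adjusted p = 0.0815) were not, and H2-DMa was called lower (-0.87, adjusted p = 0.0148). Without replicate 1 of day 3, H2-Aa (1.42, adjusted p = 0.0292) was the 1 member still called. H2-Ab1 was also lost without replicate 2 of day 3 (adjusted p = 0.075).

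Relative to H2-Aa, the H2-DM genes were lower at day 7 than at day 3. The ratio of H2-DMa to H2-Aa was 0.0519, 0.0875 and 0.0761 at day 7, against 0.687, 0.463 and 0.410 at day 3, a log2 difference of -2.85 without overlap. For H2-DMb1 the ratio was 0.466, 0.284 and 0.539 at day 7, against 2.91, 0.870 and 0.651 at day 3, a log2 difference of -1.51 without overlap, or -0.86 without replicate 1 of day 3. Both reached the smallest exact permutation p of 0.1 (0.18 after adjustment over 18 ratios). So did the ratios of H2-Ab1 (log2 difference -0.32) and H2-Eb1 (-0.58) to H2-Aa, also lower at day 7 without overlap. The ratio of Cd74 to H2-Aa was 3.75, 4.53 and 4.04 at day 7, against 4.50, 4.43 and 3.87 at day 3, and overlapped (log2 difference -0.05, exact permutation p = 0.7). Brd2, which overlaps H2-DMa, had 16.5, 14.7 and 11.5 FPKM at day 7, against 24.5, 33.6 and 37.5 FPKM at day 3.

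Of the transcription genes 4 were called lower at day 7 than at day 3 and 1 higher, with Rfx5 at -0.95 ± 0.21 (adjusted p = 0.00486), Nfyb at -1.24 ± 0.18 (adjusted p = 0.000442) and Nfyc at 1.19 ± 0.17 (adjusted p = 0.000529). Of the 11 processing genes 2 were called higher and 6 lower, of the 13 interferon genes none higher and 5 lower, and of the 11 class I genes none higher and 7 lower. Over all tested genes 21.7% were called higher and 33.7% lower, or 27.3% each with median-of-ratios scaling. The count of interferon genes called lower was near the share of 33.7%. Cd209a (0.84 ± 0.16, adjusted p = 0.00218), Csf1r (1.24 ± 0.26, adjusted p = 0.00372) and the T cell receptor gene Trac (1.05 ± 0.30, adjusted p = 0.0157) were higher at day 7. Cd209a and Trac passed the filter only through sham and day 7 libraries. Of the macrophage markers 2 were called higher and 4 lower, and all 3 tested neutrophil markers were called lower. Per FPKM of Csf1r the class II chains overlapped between the times (log2 difference 0.13, exact permutation p = 0.8), while per FPKM of the C1q genes every day 7 library was above every day 3 library (log2 difference 1.23, exact permutation p = 0.1).

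Over the 9 libraries the levels of Cd74, H2-Aa, H2-Ab1 and H2-Eb1 followed each other closely, with Pearson r of log2(FPKM + 1) between 0.980 and 0.989 for each pair. H2-DMb1 had r of 0.747 to 0.820 with those genes, and H2-DMa had r of 0.412 to 0.541 with the other tested members. These values describe 9 libraries in 3 groups and contain the differences between groups. Once each group mean was taken off, H2-DMa had r of 0.983 with the mean profile of the 6 members and H2-DMb1 had 0.513. The profile includes the gene itself in both cases.

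Outside the members, the gene most like their mean profile over the 9 libraries was Vpreb1, which encodes a surrogate light chain of precursor B cells (r = 0.971, with 0.27 to 0.41 FPKM at day 3, 0.72 to 1.11 at day 7 and 1.12 to 1.5 in sham). The class I genes H2-Q6 (r = 0.956) and H2-Q7 (r = 0.949) came next, followed by Ubap2l, Lmo4, Esrrb, Ighm and Trbc2, with r between 0.931 and 0.949. Vpreb1, Esrrb, Ighm and Trbc2 reached 1 FPKM only in sham and day 7 libraries, so they passed the filter through the groups where they were higher. H2-Q6 had 7.12, 9.50 and 9.60 FPKM at day 3, against 17.96, 17.9 and 31.0 FPKM in sham. Ighm, the IgM heavy chain, had 0.22, 0.50 and 0.30 FPKM at day 3, against 3.6, 4.11 and 10.2 FPKM in sham. After group means were taken off, the most alike were Gm14017, Cops8, Cln8, Cxcl16, Vpreb1, Steap4, Eif3a and Ifi204, with r between 0.960 and 0.988. Both sets were picked as the highest r of 13718 tested genes over 9 libraries. How high r gets by such picking alone was not tested. Cxcl16, a chemokine, had 22.6, 23.4 and 27.7 FPKM at day 3, against 11.2, 11.2 and 14.4 FPKM in sham, so its groups differed in the direction opposite to that of the class II chains.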

How the data were processed

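Whole-kidney RNA was sequenced on the Illumina platform from a directional kit, per the labels' protocols. The authors deposited 1 table of FPKM per library, with 2 decimals and Ensembl IDs. The submitters' processing notes name FastQC 0.10.1, HISAT, StringTie and GRCm38, with no role or order; the sources used here give no settings, strand use or read depth. FPKM sums differ between libraries, so a few abundant genes can shift the rest.

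IDs were matched to symbols in GENCODE M21, and 145 of the 148 symbols in 14 lists matched. The 13718 genes that reached 1 FPKM in 3 or more of the 9 libraries were tested with limma 3.58.1 in R 4.3.3 on log2(FPKM + 1), with group as the only term, a mean-variance trend and Benjamini-Hochberg adjustment at 0.05. The procedure was tested on simulated data. Ratios used two-sided exact permutation tests. Named genes were all members, all genes of the transcription and other-chain lists, up to 4 called genes per other list and comparison by size of change, a fixed set of markers, and the 8 genes most alike; Ctss, the C1q genes, Cxcl9, Zbtb46, Kap and the overlapping genes were named outside this rule, after their values were seen. Some genes named by this rule are not reported here. The members and lists were chosen with earlier results of these data known. P-values measure the spread between these libraries. Alternatives were pseudocount, filter, scaling, variance, library set, replicate block, a GC and length trend, and each library left out.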

Additional observations from a re-analysis of the deposited data

Results flagged for a closer look

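The change between day 7 and day 3 passed the limma test for 4 members. This is the contrast already given in the report, and a difference of the effects against sham equals it because the sham libraries cancel. The log2 difference (day 7 minus day 3) was 1.87 for Cd74, 1.76 for H2-Aa, 1.5 for H2-Ab1 and 1.30 for H2-Eb1, with adjusted p-values of 0.0181, 0.00859, 0.0300 and 0.0193 in the same order. All 3 day 7 libraries were above all 3 day 3 libraries for each gene. Without replicate 1 of day 3, H2-Aa alone was still called, and without replicate 2 of day 7, H2-Aa and H2-Eb1 were called higher.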

How the results depend on the processing

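Between day 3 and sham, all 54 member fits with a library left out and all 53 with another setting kept their direction and call. Calls between day 7 and day 3 and between day 7 and sham rest in part on single libraries: the number of members called ran from 1 to 4 for day 7 over day 3 (1 without replicate 1 of day 3, against 4), and from 0 to 2 for day 7 over sham (2 without replicate 2 of day 7). With median-of-ratios scaling and with quantile normalization 1 member was called for day 7 over sham, in each case H2-DMa. H2-Ab1 was lost for day 7 over day 3 with no filter (adjusted p = 0.0615) and with only the 6 libraries compared (adjusted p = 0.0512).

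Over all genes, a filter at 5 FPKM tested fewer genes and called 5104 for day 3 over sham and 4973 for day 7 over day 3, against 8214 and 7603. Removing a GC and length trend called 856 for day 7 over sham, against 4075; the cause was not tested. With a library left out the counts were 7106 to 8221 for day 3 over sham, 2470 to 4719 for day 7 over sham and 6267 to 7901 for day 7 over day 3. The replicate block called 8212, 3885 and 7540 genes and 5, 0 and 4 members in these 3 comparisons. Same-numbered libraries had deviations correlated between -0.054 and 0.238, and differently numbered libraries between -0.28 and 0.115. The numbers were taken to pair the libraries only if every same-numbered correlation was over 0.1, which was not met. A batch shared by some same-numbered libraries was not tested.

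Small log2 ratios to H2-Aa changed sign with a library left out. They ran from -0.0456 to 0.0716 for H2-Ab1 and from -0.19 to 1.35 for Ciita at day 3 over sham, from -0.24 to 0.0251 for H2-Eb1 and from -0.37 to 0.0933 for H2-DMb1 at day 7 over sham, and from -0.13 to 0.00837 for Cd74 and from -0.65 to 0.88 for Ciita at day 7 over day 3. The last was -0.54 with a pseudocount of 0.1, against 0.04. Class II chains per Csf1r at day 7 over day 3 ran from -0.24 to 0.36. Ctsl at day 7 over sham was -0.10 with the GC and length trend removed, against 0.40. Of 1530 alternative fits of 86 called list results, 1400 kept the call, 129 lost it and 1 changed sign. These 86 were up to 4 per list and comparison, picked by size of change, so list calls with smaller changes are not counted. Depth is unknown, so no counting limit can be given for Ciita or other genes under 1 FPKM.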
